A study of Mus musculus with 10 samples.

Results

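RNA sensors and interferon regulatory factors were followed as 10 listed genes among the 31053 genes counted in E0771 tumors. They comprised the cytosolic RNA sensors Ifih1 (MDA5), Ddx58 (RIG-I) and Dhx58 (LGP2), the adaptors Mavs and Tmem173 (STING), the kinase Tbk1 and the transcription factors Irf3, Irf7, Irf1 and Irf9. They were taken as a list of names, drawn up with earlier results of these data known, and all 10 were detected. E0771, a mouse mammary carcinoma line of C57BL/6 origin, was grown in WT and EC-AGO1-KO hosts, female C57BL/6 mice that were 16 weeks old when cells were placed in the fourth mammary fat pad, and tumors were taken on day 21. EC-AGO1-KO mice carried floxed Ago1 alleles and a Cre transgene under the VE-Cadherin promoter, so that the deletion was directed to endothelial cells and the injected tumor cells of both genotypes kept their own Ago1. Single-cell RNA was counted as unique molecular identifiers (UMIs) in 10 libraries, 5 WT and 5 EC-AGO1-KO, and 2 of the KO libraries (KO 2+3 and KO 5+6) each pooled 2 small tumors. There was 1 library of each genotype in batch 1, and 4 of each were in batch 2.

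In the cytosol, MDA5 and RIG-I bind double-stranded or 5′-triphosphate RNA, and LGP2 modulates both. They signal through MAVS on mitochondria, whereas STING relays signals from cytosolic DNA, and both adaptors recruit TBK1, which phosphorylates IRF3 and IRF7 to start type I interferon transcription. Secreted interferon then acts through IRF9 and its partners, which bind interferon-stimulated response elements (ISRE), while IRF1 is a target of interferon gamma through gamma-activated sites (GAS). The sensors, Irf7 and Irf9 are themselves interferon-induced genes, whereas Irf3, Mavs and Tbk1 are usually regarded as constitutive. Macrophages and dendritic cells are well-known sites of high sensor and Irf7 expression.

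Promoter sequence was available in RefSeq (GRCm38.p6) for 8 of the 10 genes, in 10 windows of 300 bases. A pair of letter patterns were searched on both strands, the ISRE core GAAANNGAA and the GAS pattern TTCNNNGAA. Of all 32851 windows, 8.56% held the first and 8.30% the second. Among the members, the ISRE core was found in Ifih1, from −112 to −104 and from 33 to 41 relative to the start site (the first transcribed base is 1), and in Ddx58, from 4 to 12. The GAS pattern was found in 1 of 2 Irf1 windows, from −90 to −82. It reads the same on both strands, so any match of it lies on both. The windows of Mavs, Tbk1, Irf3, Irf7 and Irf9 held neither pattern, and Dhx58 and Tmem173 were not among the windows. The 3 stretches with a match are shown because Ifih1 and Ddx58 were highest in the same cluster of tumor-like cells of batch 2, and Irf1 in another. Each runs 5′ to 3′ on the strand of the gene from −150 to 30, at chr2:62646226-62646405 (minus strand), chr4:40239796-40239975 (minus strand) and chr11:53769864-53770043 (plus strand), with the matched letters in capitals. In Ifih1 and Ddx58 the capitals are the ISRE core read from the opposite strand, and the other Ifih1 match lies past the printed end. A match describes the letters and not binding.
Ifih1: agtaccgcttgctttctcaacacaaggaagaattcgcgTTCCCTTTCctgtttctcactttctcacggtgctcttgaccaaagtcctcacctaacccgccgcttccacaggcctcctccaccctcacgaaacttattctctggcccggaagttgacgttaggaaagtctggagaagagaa
Ddx58: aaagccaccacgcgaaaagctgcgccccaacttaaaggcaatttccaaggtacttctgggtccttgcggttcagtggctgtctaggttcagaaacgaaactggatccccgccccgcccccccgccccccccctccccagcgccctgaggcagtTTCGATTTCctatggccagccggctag
Irf1: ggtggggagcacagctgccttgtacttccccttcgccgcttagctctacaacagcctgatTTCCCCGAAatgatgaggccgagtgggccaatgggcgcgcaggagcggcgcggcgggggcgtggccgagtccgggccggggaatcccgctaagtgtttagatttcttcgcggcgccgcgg

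A barcode was kept as a cell if it held 200 to 7000 genes and no more than 10% of mitochondrial UMIs, which left 65298 cells, 2162 in batch 1 and 63136 in batch 2. Libraries held 8323896 to 10591577 UMIs. The median was 3862 to 4049 UMIs per cell in batch 1 and 595 to 1142 in batch 2, and ribosomal protein genes took 18.1% to 19.6% of UMIs in batch 1 and 2.38% to 3.92% in batch 2, so each level below is given by batch. Levels are UMI counts scaled to the UMI total of a class, in counts-per-million (CPM), with Actb, which took up to 17.0% of the UMIs of a library, left out of the totals. They are compared for 1 gene across classes, never between genes. Any 2 libraries shared at most 28 barcodes, 0.503% of the smaller library or less. Ago1 gave 0 UMIs in the endothelial-like cells of both genotypes (0 of 39626 in WT and 0 of 52835 in KO libraries of batch 2, which allows levels of up to 75.7 and 56.8 CPM), so the deletion could not be checked at this depth. Tumor-like cells held Ago1 at 4.15 to 8.02 CPM over the libraries of both genotypes. Cells were clustered with the 10 genes left out and named from marker lists, which gave 55654 tumor-like cells, 2159 myeloid-like cells and 1370 T-like cells. The smaller classes were dendritic-like (204), endothelial-like (206), fibroblast-like (581), epithelial-like (432), pericyte-like (270) and B-like (65). The myeloid-like cells came from 2 clusters that split by batch, 1 led by Fcer1g, Pf4 and C1qb in batch 1 and 1 led by Ccdc152, Cadm1 and Adap2 in batch 2. Intervals on summed UMIs are 95% and cover counting error only. Where a class gave 0 UMIs, the level said to be allowed is that of 3 UMIs and not an interval bound.

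Ifih1 (chromosome 2, 62595798 to 62646255, minus strand), which senses long double-stranded RNA, was highest in myeloid-like cells among the classes with over 50 cells in each batch. In batch 1 the myeloid-like cells of the WT library held 130 CPM and those of the KO library 158 CPM, against 19.2 and 19.0 CPM in tumor-like cells. Its summed level was 7.59-fold that of tumor-like cells (95% interval 6.34 to 9.10). In the 8 libraries of batch 2, myeloid-like cells ranged from 101 to 386 CPM (median 199) and tumor-like cells from 20.3 to 51.7 CPM (median 40.1), and the myeloid-like value was higher in 8 of 8 libraries, 5.32-fold over the sums (4.27 to 6.57). The ranges of the 2 classes did not overlap. T-like cells stood at 113 CPM in batch 2, 2.93-fold above tumor-like cells and higher in 8 of 8 libraries, and fibroblast-like cells at 103 CPM. The 25 dendritic-like cells of batch 1 held 207 CPM from 9 UMIs (94.5 to 392). Those of batch 2 held 111 CPM from 10 UMIs (53.3 to 204). With a coarser clustering (Leiden resolution 0.5) these values were 23.2 CPM from 1 UMI and 165 CPM from 32 UMIs. Free RNA, read from barcodes with at most 50 UMIs, held 14.5 CPM of Ifih1 in batch 1 and 44.6 CPM in batch 2, so the tumor-like level of batch 2 lay below that of free RNA and the myeloid-like level above it. The tumor-like sums of Mavs, Tmem173, Irf7, Irf1 and Irf9 in batch 2 were also below free RNA, and those of Ddx58, Dhx58, Tbk1 and Irf3 above it.

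Ddx58 (chromosome 4, 40203773 to 40239828, minus strand) followed the same order with smaller differences. Its myeloid-like level in batch 1 was 66.3 CPM for WT and 74.1 CPM for KO, against 28.0 and 31.6 CPM in tumor-like cells, a 2.38-fold difference over the sums (1.94 to 2.91). In batch 2 they ranged from 75.7 to 279 CPM (median 135) against 52.0 to 103 CPM (median 92.4) in tumor-like cells, 1.71-fold (1.32 to 2.19), and were higher in 8 of 8 libraries although the 2 ranges overlapped. Dhx58 (chromosome 11, 100694884 to 100704271, minus strand), the sensor-like helicase without a signalling domain, was 5.60-fold higher in myeloid-like cells of batch 1 (48.5 against 8.66 CPM, 4.19 to 7.50) and higher again in batch 2 (143 against 47.6 CPM, interval of the ratio 2.30 to 3.85), in 7 of 8 libraries. In endothelial-like cells of batch 2 it stood at 108 CPM from 10 UMIs, with an interval of 51.9 to 199 CPM, and in those of batch 1 it gave 0 UMIs, which allows up to 55.3 CPM. Its locus is overlapped on the opposite strand by Dhx58os, which was counted too. Dhx58os stood at 96.0 CPM in myeloid-like and 29.9 CPM in tumor-like cells of batch 2, and since a strand setting is not given in the sources used here, UMIs of the pair may not be separable.

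Of the adaptors, Mavs had few UMIs, and no difference between myeloid-like and tumor-like cells was resolved. It held 11.5 CPM in myeloid-like and 9.28 CPM in tumor-like cells of batch 1 (1.24-fold, 0.75 to 1.96). In batch 2 it held 4.46 against 4.21 CPM (interval of the ratio 0.13 to 3.88), and the myeloid-like sum rested on 2 UMIs. Tmem173 was higher in T-like than in tumor-like cells by a like factor in both batches, 3.39-fold in batch 1 (92.8 against 27.4 CPM, 2.04 to 5.32) and 3.30-fold in batch 2 (15.5 against 4.70 CPM, 1.31 to 6.92). The batch 2 value came from 7 UMIs and was higher in 3 of 8 libraries, since most libraries held none. Myeloid-like cells stood at 59.0 CPM in batch 1, 2.15-fold above tumor-like cells. Endothelial-like cells reached 203 CPM in batch 1, from 11 UMIs in 14 cells, and 10.8 CPM in batch 2, from 1 UMI.

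Tbk1, the kinase downstream of both adaptors, did not separate tumor-like from myeloid-like cells. Its level was 72.5 CPM in tumor-like and 65.5 CPM in myeloid-like cells of batch 1, a ratio of myeloid-like to tumor-like of 0.90 (0.75 to 1.09), and 162 against 156 CPM in batch 2, a ratio of 0.96 (0.75 to 1.22). By library, the myeloid-like value was the higher in 6 of 8 of batch 2. T-like cells were below tumor-like cells in both batches, with 32.5 CPM (ratio 0.45, 0.18 to 0.93) and 106 CPM (ratio 0.66, 0.48 to 0.87), and were higher than tumor-like cells in 1 of 8 libraries of batch 2. Irf3, the factor that TBK1 activates first, was the other member that was not higher in myeloid-like cells, with 18.0 against 28.7 CPM in batch 1 (ratio 0.63, 0.43 to 0.89) and 15.6 against 26.2 CPM in batch 2 (ratio 0.60, 0.24 to 1.23). For the other 8 members the myeloid-like sum was the higher in both batches, although the interval of the ratio included 1 for Mavs in both batches and for Tmem173 and Irf9 in batch 2. Of all 11179 genes with at least 200 UMIs, 24.9% were higher in myeloid-like and 26.9% in T-like than in tumor-like cells of both batches, against 8 and 7 of the 10 members. Among those 7, the T-like interval included 1 for Dhx58 in both batches, for Ifih1 in batch 1 and for Irf7 and Irf9 in batch 2.

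Irf7, the factor that amplifies type I interferon production, separated the classes most widely in batch 1. Its myeloid-like level was 678 CPM for WT and 738 CPM for KO, against 25.3 and 25.6 CPM in tumor-like cells, 27.9-fold over the sums (24.6 to 31.8). They were 14.6% of the UMIs of batch 1 and held 78.4% of its Irf7 UMIs, 1420 of 1812. Dendritic-like cells (367 CPM), endothelial-like cells (332 CPM), fibroblast-like cells (160 CPM) and T-like cells (158 CPM) followed, each from 16 to 34 UMIs, and free RNA stood at 66.9 CPM. The dendritic- and endothelial-like levels did not differ beyond their counting intervals. Tumor-like cells lay below free RNA, so that their Irf7 could not be told from it. In batch 2 the whole scale was lower. Myeloid-like cells ranged from 0 to 95.5 CPM (median 25.3), from 16 UMIs in all, and tumor-like cells from 2.26 to 8.69 CPM (median 5.57). The myeloid-like value was higher in 7 of 8 libraries and 6.52-fold over the sums (3.67 to 10.8), and free RNA held 20.5 CPM. Dendritic-like and endothelial-like cells gave 0 UMIs of Irf7 in batch 2, which allows up to 33.3 and 32.4 CPM. The count of the dendritic-like class depended on the clustering. At Leiden resolution 0.5 that class held 498 cells of batch 2, with 5 UMIs of Irf7 (25.7 CPM), and endothelial-like cells again gave 0.

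Irf1 and Irf9 were higher in myeloid-like and T-like cells than in tumor-like cells. Irf1 was 4.32-fold higher in myeloid-like (72.0 CPM) and 4.73-fold higher in T-like cells (78.9 CPM) than in tumor-like cells (16.7 CPM) of batch 1, and 2.46-fold and 2.84-fold higher in batch 2, where it reached 40.2 and 46.5 CPM against 16.4 CPM. The myeloid-like and T-like levels did not differ beyond their counting error. Irf1 also stood above tumor-like cells in the endothelial-like cells of batch 2, at 75.7 CPM from 7 UMIs. Dendritic-like cells held 138 CPM of Irf1 in batch 1 from 6 UMIs (50.5 to 300) and 55.6 CPM in batch 2 from 5 UMIs (18.0 to 130). Irf9, a DNA-binding factor downstream of the interferon receptor, held 43.5 CPM in myeloid-like, 41.8 CPM in T-like and 11.2 CPM in tumor-like cells of batch 1. In batch 2 the values were 13.4, 13.3 and 8.17 CPM, from 6 UMIs each in myeloid-like and T-like cells, and did not separate.

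**Figure D1:**
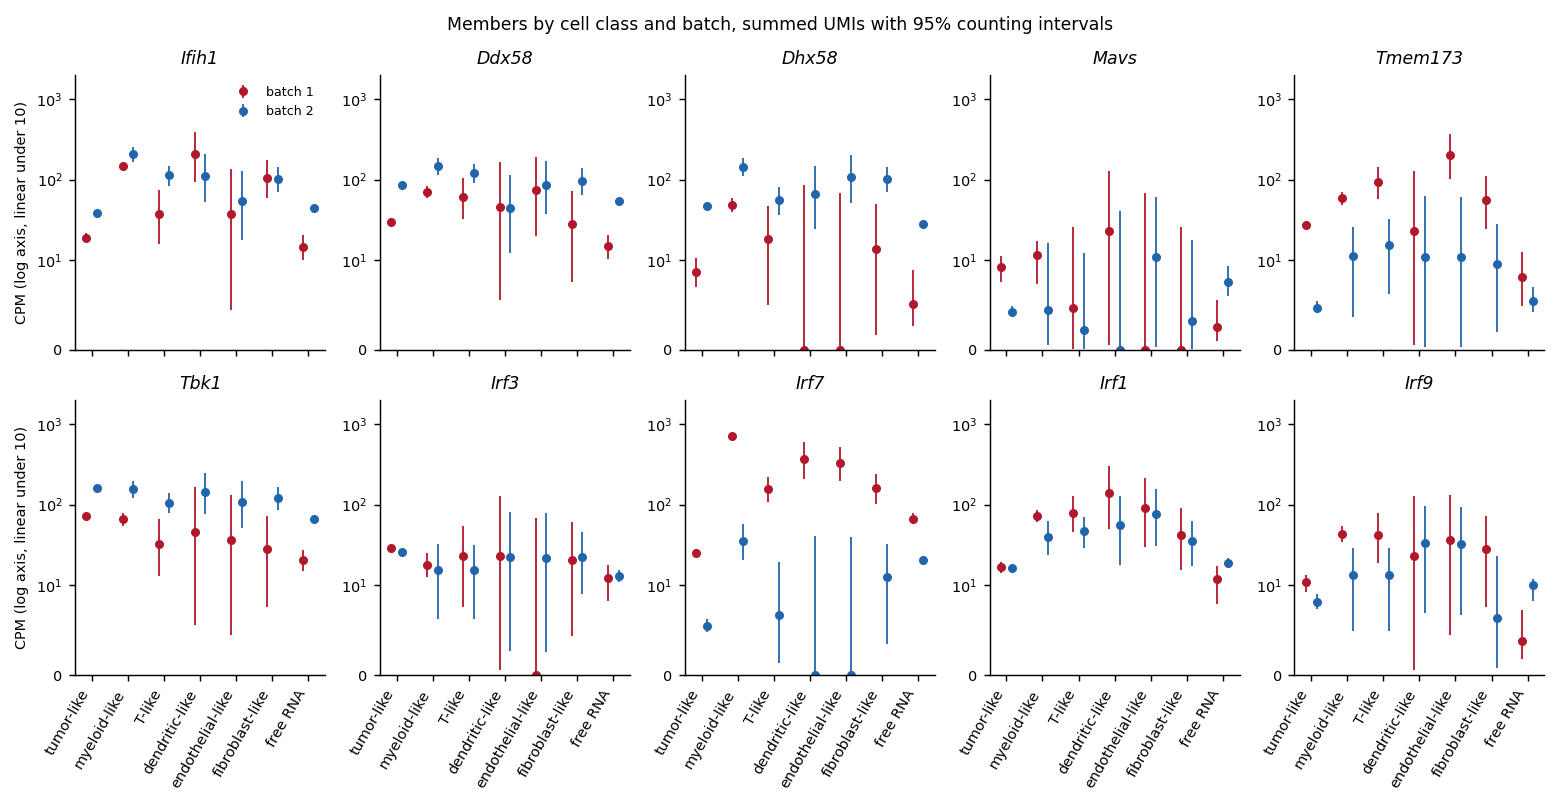
Level of each member (y axis, CPM, logarithmic above 10 and linear below) in 6 cell classes and in free RNA (x axis), with summed UMIs of batch 1 in red and batch 2 in blue and 95% counting intervals as bars. Irf7 reaches 710 CPM in myeloid-like cells of batch 1 and 35.7 CPM in batch 2, while Tbk1 lies at similar heights in tumor-like and myeloid-like cells.

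The batches set different scales. From batch 1 to batch 2 the level in tumor-like cells changed by a factor of 5.50 for Dhx58, 2.90 for Ddx58, 2.24 for Tbk1 and 2.02 for Ifih1, whereas it was 0.98 for Irf1, 0.91 for Irf3, 0.73 for Irf9, 0.45 for Mavs, 0.22 for Irf7 and 0.17 for Tmem173. In myeloid-like cells Irf7 changed by a factor of 0.050. Of the members that were higher in batch 2, Ifih1 (50458 bases), Tbk1 (40333) and Ddx58 (36056) have the longest loci, and Dhx58 spans 9388 bases. Of those lower in batch 2, Mavs spans 13963, Tmem173 6876 and Irf7 3776 bases. Sequencing platform, depth and the share of ribosomal protein genes differed together between the batches and cannot be told apart, and the part of locus length was not tested. Besides Dhx58, the loci of Irf3, Irf7, Irf1 and Irf9 are each overlapped by another counted gene (Bcl2l12, Phrf1, Gm17334 and Rnf31).

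Over the 24 clusters with at least 200 cells, the genes most like each member were found by Pearson correlation of log2(CPM + 20) among 6859 genes. The clusters share libraries and depth, so these values are descriptions. Ifih1 was followed by Parp14 (0.87), Trim30a (0.87) and Mndal (0.86), Ddx58 by Rnf213 (0.85), Sgpp1 (0.76) and Parp9 (0.74), and Dhx58 by its overlapping partner Dhx58os (0.89), Tmem140 (0.76) and Rnf213 (0.76). Irf1 was most like AW112010 (0.87) and the immediate early and NF-kB target genes Junb (0.83) and Nfkbia (0.80). Irf7 was most like Ifitm2 (0.91), Gpx1 (0.90) and Itm2b (0.90), and Irf9 like Bcl7b (0.79), H2-T22 (0.76) and Ubb (0.74). Tmem173 followed Ly6a (0.89), Ndufv3 (0.88) and Uqcrb (0.87), Mavs followed Mcrip1 (0.78), Bri3 (0.76) and Flot1 (0.75), Irf3 followed Rbm34 (0.72), Tmem63b (0.71) and Nop58 (0.70), and Tbk1 followed Abcc1 (0.90), Hsd17b4 (0.85) and Cops2 (0.85). Over the 22 clusters of batch 2 alone, the first gene stayed the same for Ddx58, Dhx58 and Tbk1. For Irf7 all 3 changed, to Atp5k (0.89), Gm10076 (0.89) and Crip1 (0.89), as they did for Irf3, to Rab6a (0.79), Rab11fip3 (0.75) and Dag1 (0.75). For Irf1 they became Pnrc1 (0.86), AW112010 (0.85) and Myl12b (0.85).

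Among tumor-like cells of batch 2, the 3 sensors had their highest levels in 1 cluster, although most of their UMIs lay outside it. This cluster of 3690 cells was led by the interferon response genes Usp18, Herc6, Ddx60 and Rsad2 after Gm44148, and held the list of 24 interferon response genes at 2701 CPM against 483 CPM in the other tumor-like cells. Ifih1 stood at 129 CPM in it and at 31.7 CPM in the other tumor-like cells (4.07-fold), Ddx58 at 200 against 77.2 CPM (2.60-fold) and Dhx58 at 137 against 40.8 CPM (3.36-fold). Ifih1 ranged from 104 to 144 CPM over the 8 libraries in the cluster and from 16.8 to 40.8 CPM outside it. Ddx58 ranged from 143 to 235 CPM in it and from 45.9 to 96.1 CPM outside it. Dhx58 ranged from 60.3 to 254 CPM in it and from 19.3 to 55.0 CPM outside it. For each sensor the ranges did not overlap, and the cluster was higher in 8 of 8 libraries. Dhx58os stood at 94.8 CPM in the cluster, 3.79-fold above the other tumor-like cells.

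The adaptors, the kinase and the factors moved less with that cluster. Tbk1 was at 200 against 159 CPM (1.26-fold, 8 of 8 libraries) and Irf3 at 35.2 against 25.5 CPM (1.38-fold, 7 of 8). Irf7 was at 10.2 against 5.11 CPM, from 31 UMIs, Irf1 was 1.59-fold above its 15.7 CPM in the other cells and Irf9 at 10.9 against 7.96 CPM, each higher in 6 of 8 libraries. Mavs (4.28 against 4.21 CPM) and Tmem173 (3.95 against 4.76 CPM) were higher in 4 and 3 of 8 libraries, from 13 and 12 UMIs. Irf1 had its highest tumor-like level, 31.9 CPM, in another cluster, led by Gm17268, Ccl2, Ankrd33b and Nfkbia. Tbk1 was highest in a cluster led by Lncpint, Ogt and Pias2, at 210 CPM and in 8 of 8 libraries above the other tumor-like cells. The interferon response list stood at 432 CPM there. Irf9 was highest in a cluster led by F2r, Gas7 and Tmem250-ps, at 13.6 CPM (6 of 8). The Usp18 and Rsad2 cluster was formed from genes that include interferon response genes, so that these values are descriptions and not tests.

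**Figure D2:**
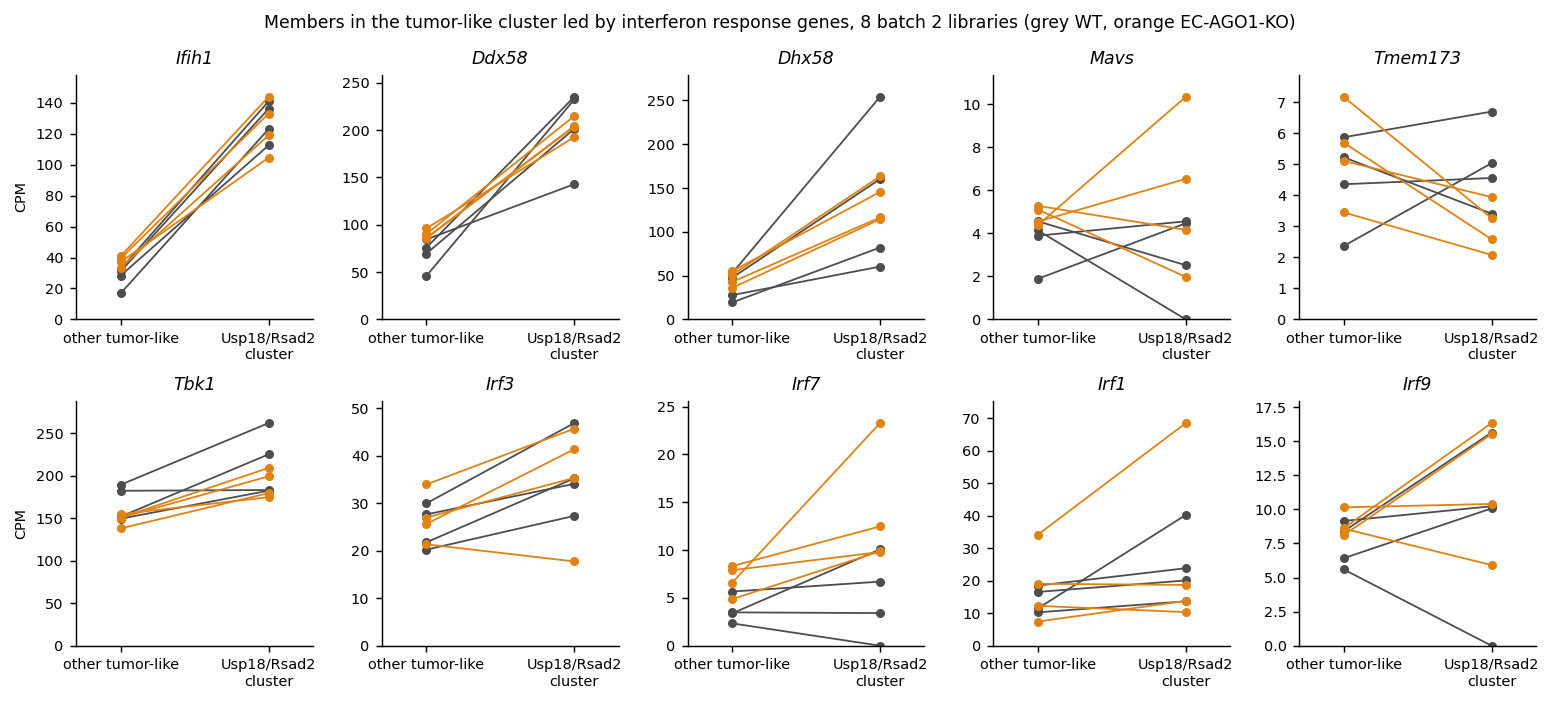
Level of each member (y axis, CPM, starting at 0) in the tumor-like cluster led by Usp18 and Rsad2 and in all other tumor-like cells, with 1 line for each of the 8 libraries of batch 2 (grey WT, orange EC-AGO1-KO). All 8 lines go up for Ifih1, Ddx58, Dhx58 and Tbk1, and 3 of 8 go up for Tmem173.

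The wider pathway was compared between the same classes. Of 30 other sensors, adaptors and regulators, 22 were higher in myeloid-like than in tumor-like cells in both batches and 20 were higher in T-like cells. Among those with at least 200 UMIs the counts were 18 and 18 of 23, beside the 24.9% and 26.9% of all such genes. Tank, a TBK1-binding scaffold, stood at 463 CPM in myeloid-like against 86.6 CPM in tumor-like cells of batch 1 and at 1366 against 151 CPM in batch 2. Traf3, a ubiquitin ligase that acts between the adaptors and TBK1, stood at 89.0 against 106 CPM in batch 1 and at 245 against 208 CPM in batch 2. Azi2, another TBK1 adaptor, was lower in myeloid-like than in tumor-like cells, at 78.5 against 99.7 CPM and 212 against 249 CPM. Of 5 other interferon regulatory factors, 4 were higher in myeloid-like and 5 in T-like cells in both batches. Among them Irf5 stood at 107 against 2.50 CPM in batch 1 and at 44.6 against 4.26 CPM in batch 2. The 9 interferon genes of the list gave 3 UMIs in batch 1 and 30 in batch 2, of which 24 came from Ifng, named here after its value was seen.

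WT and EC-AGO1-KO libraries were then compared to ask whether loss of endothelial AGO1 went with a change in RNA sensing genes in the tumor. UMIs were summed per library and class and fitted over all genes with edgeR, with batch as a covariate, so a log2 fold change (log2FC) is KO over WT. In the fit over all cells, fewer cells of a type and less of an RNA per cell cannot be told apart. Within a class the same holds for the clusters it is made of. In tumor-like cells none of the 10 members passed an adjusted p of 0.05. Nor did any of the 12858 genes tested (0% called by edgeR, 683 with an unadjusted p under 0.05, and 1 called by DESeq2). The median log2FC of the members was 0.28, with 8 of 10 above 0, beside 0.00 and 6536 of 12858 for all genes. No member is called different by these fits.

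Among the sensors, Ddx58 was at 77.8, 85.3, 89.5 and 52.0 CPM in WT libraries 1, 3, 4 and 5 of batch 2 and at 96.1, 103, 103 and 95.3 CPM in KO libraries 1, 2+3, 4 and 5+6. Every KO value lay above every WT value. The libraries of batch 1 held 28.0 CPM (WT) and 31.6 CPM (KO). The log2FC was 0.30 ± 0.14 (SE, 95% interval 0.0049 to 0.60, unadjusted p = 0.0467 and edgeR adjusted p = 0.893). Ifih1 was at 39.4, 33.4, 40.0 and 20.3 CPM in the WT libraries and at 47.7, 41.7, 51.7 and 40.2 CPM in the KO libraries, again without overlap. The gap was narrow, from 40.04 CPM in WT 4 to 40.19 CPM in KO 5+6. The libraries of batch 1 held 19.2 CPM (WT) and 19.0 CPM (KO). Its log2FC was 0.32 ± 0.17 (−0.04 to 0.68, edgeR adjusted p = 0.893). Library WT 5 was the lowest for both genes, and without it the log2FC fell to 0.16 for Ifih1, 0.17 for Ddx58 and 0.15 for Dhx58. WT 5 was also the deepest library of batch 2, with a median of 1142 UMIs per cell. Dhx58 overlapped, from 21.4 to 65.3 CPM in WT and from 44.2 to 63.0 CPM in KO, with a log2FC of 0.35 ± 0.24 (−0.15 to 0.84, edgeR adjusted p = 0.899).

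Mavs was the third member without overlap, at 2.11 to 4.43 CPM in WT and 4.68 to 5.18 CPM in KO of batch 2 and at 7.78 and 11.0 CPM in batch 1 (log2FC 0.41 ± 0.21, −0.03 to 0.85, edgeR adjusted p = 0.893). Of 18179 genes with at least 10 UMIs, 3.05% did not overlap between the 4 WT and 4 KO libraries, against 3 of 10 members. The gap between the groups was narrow for Ifih1 (40.04 to 40.19 CPM) and Mavs (4.43 to 4.68 CPM), so few UMIs could close it. The tumor-like sums of Ifih1 and Mavs in batch 2 also lay below free RNA. All 3 were higher in KO, as were 451 of the 554 such genes, and the members share libraries and are not independent of each other. Irf7 had the largest log2FC among the members, 0.65 ± 0.24 (0.14 to 1.17, unadjusted p = 0.0158 and edgeR adjusted p = 0.893). It was at 3.80, 3.48, 5.75 and 2.26 CPM in WT libraries and at 8.69, 8.02 and 7.88 CPM in KO libraries 1, 2+3 and 5+6, while KO 4 lay below WT 4. The libraries of batch 1 held 25.3 CPM (WT) and 25.6 CPM (KO). These levels all lay below that of free RNA. Irf9 (0.20 ± 0.19), Irf1 (0.25 ± 0.30), Tmem173 (0.08 ± 0.23), Irf3 (−0.02 ± 0.16) and Tbk1 (−0.16 ± 0.11) had log2FC intervals that included 0, and their batch 2 values overlapped. For Tbk1 the interval, −0.39 to 0.07, kept the difference within 1.5-fold.

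**Figure D3:**
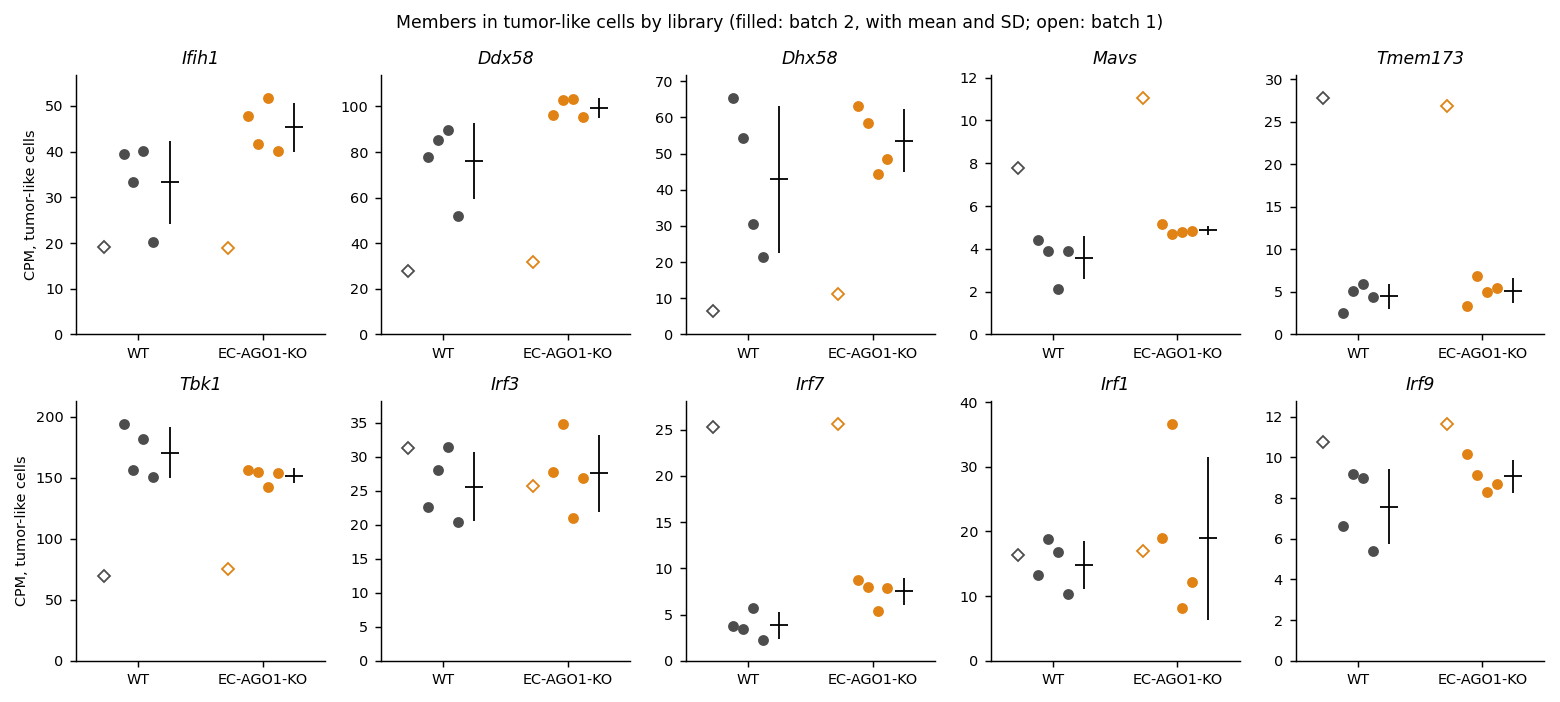
Level of each member in tumor-like cells (y axis, CPM, starting at 0) in WT and EC-AGO1-KO libraries (x axis). Filled points are the 4 and 4 libraries of batch 2 with their mean and SD as bars, and open diamonds are the 1 and 1 libraries of batch 1. KO points lie above all WT points of batch 2 for Ifih1, Ddx58 and Mavs, and the groups overlap for the other members.

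Over all cells none of the 10 members was called, as for all 14181 genes tested (0% called by edgeR, 1313 with an unadjusted p under 0.05, and 2 called by DESeq2). The largest log2FC among members was that of Irf7, 0.63 ± 0.23 (0.14 to 1.12, edgeR adjusted p = 0.456), followed by Ifih1 with 0.38 ± 0.15 (0.06 to 0.70, edgeR adjusted p = 0.492). Ifih1 and Ddx58 did not overlap between the genotypes in batch 2, 2 of 10 members beside 4.71% of 19553 genes.

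In myeloid-like cells 5 of the 10 members passed the filter on low counts (Ifih1, Ddx58, Dhx58, Tbk1 and Irf7), and none was called. Of 2086 genes tested, 2 were called (0.0959%, 80 with an unadjusted p under 0.05, and 0 called by DESeq2). The log2FC was 0.34 ± 0.26 for Ifih1, 0.48 ± 0.30 for Ddx58, 0.10 ± 0.33 for Dhx58, −0.24 ± 0.29 for Tbk1 and −0.02 ± 0.27 for Irf7 (edgeR adjusted p = 0.999 for each). Ddx58 was at 75.7 to 119 CPM in WT and 151 to 279 CPM in KO libraries of batch 2 and did not overlap, 1 of the 6 members with at least 10 UMIs there beside 3.21% of 5637 such genes, but the WT values rested on 1 to 6 UMIs per library. For Irf7, whose UMIs came mostly from batch 1, the interval was −0.55 to 0.50. In T-like cells no member passed the filter, none of 1554 genes was called (0% by edgeR, 83 with an unadjusted p under 0.05, and 0 by DESeq2), and each of the 5 members with at least 10 UMIs there overlapped, beside 3.28% of 5784 such genes that did not. Endothelial-like cells, in which the Cre transgene is active, numbered 7 to 35 per library and were not tested.

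**Figure D4:**
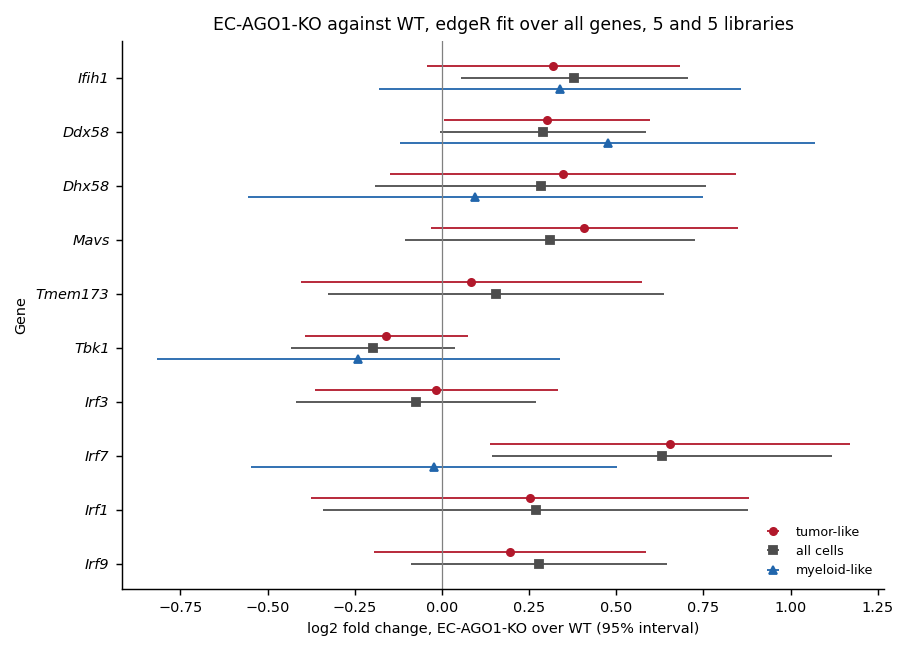
The log2 fold change of each member, EC-AGO1-KO over WT (x axis, with 95% intervals as bars), from the edgeR fits in tumor-like cells (red circles), all cells (grey squares) and myeloid-like cells (blue triangles, 5 members), with 5 and 5 libraries in each fit. Irf7 lies farthest to the right at 0.65 in tumor-like cells and at −0.02 in myeloid-like cells, and no member passes the adjusted threshold.

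The fixed lists around the members gave the same count of calls in tumor-like cells. Of 24 other sensors, adaptors and regulators tested none was called (median log2FC 0.07, range −0.55 to 0.80, 16 above 0). Those with the highest mean level were Azi2 (0.19 ± 0.10), Traf3 (0.03 ± 0.10) and Tank (−0.16 ± 0.14). Of 3 other interferon regulatory factors tested none was called, with −0.15 ± 0.11 for Irf2. Of 23 interferon response genes tested none was called, and 22 lay above 0 with a median of 0.46 (range −0.01 to 0.92). Those with the highest mean level were Usp18 (0.37 ± 0.23), Herc6 (0.35 ± 0.22) and Bst2 (0.15 ± 0.24). In myeloid-like cells 1 of 14 tested interferon response genes was called, Parp14, with a log2FC of 0.83 ± 0.20 (edgeR adjusted p = 0.0499), and DESeq2 called none there. The other gene called in these cells was Prdx1, a peroxidase outside the lists that is named after its value was seen, with −0.89 ± 0.20 (edgeR adjusted p = 0.0499). Over all cells none was called of 24 interferon response genes (23 above 0, median 0.51), 27 sensors, adaptors and regulators (22 above 0, median 0.15) and 4 interferon regulatory factors (3 above 0, median 0.28). In T-like cells none of the 4, 6 and 1 genes tested was called, and 1 of 4 interferon response genes lay above 0.

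From tumor to tumor, some members varied with the interferon response list. In tumor-like cells of batch 2 the list ranged from 302 CPM (WT 5) over 509 (WT 1), 609 (WT 3) and 770 (WT 4) to 725 to 837 CPM in the 4 KO libraries. Over these 8 libraries, with the log2 level of each member tested by an exact two-sided permutation test and adjusted over the 10 members, Pearson's r was 0.98 for Ddx58 (p = 0.000967, adjusted p = 0.00967), 0.92 for Irf9 (p = 0.00776, adjusted p = 0.0259), 0.89 for Ifih1 (p = 0.0162, adjusted p = 0.0406) and 0.88 for Irf7 (p = 0.00233, adjusted p = 0.0117). Irf3 (0.68), Dhx58 (0.58), Irf1 (0.44), Tmem173 (0.39), Mavs (0.06) and Tbk1 (−0.03) did not pass. Of the members that passed, Irf9, Ifih1 and Irf7 had tumor-like sums in batch 2 below free RNA. Spearman's rho was 0.81 for Ddx58, 0.69 for Irf9, 0.76 for Ifih1 and 0.88 for Irf7, and passed for no member after adjustment in the exact permutation test, with adjusted p-values of 0.109, 0.139, 0.123 and 0.0724. Without WT 5 and WT 1, the 2 libraries farthest from the median of the list, r was 0.82 for Irf7, 0.72 for Ddx58, 0.63 for Ifih1 and 0.12 for Irf9, and none passed. The calls rested on those 2 libraries, and r fell most for Irf9 among these 4 and least for Irf7. The KO libraries lay at the upper end of the list, and the relation was not tested within each genotype. It was not run over all genes either, so the count of calls has no share beside it and does not set the members apart.

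**Figure D5:**
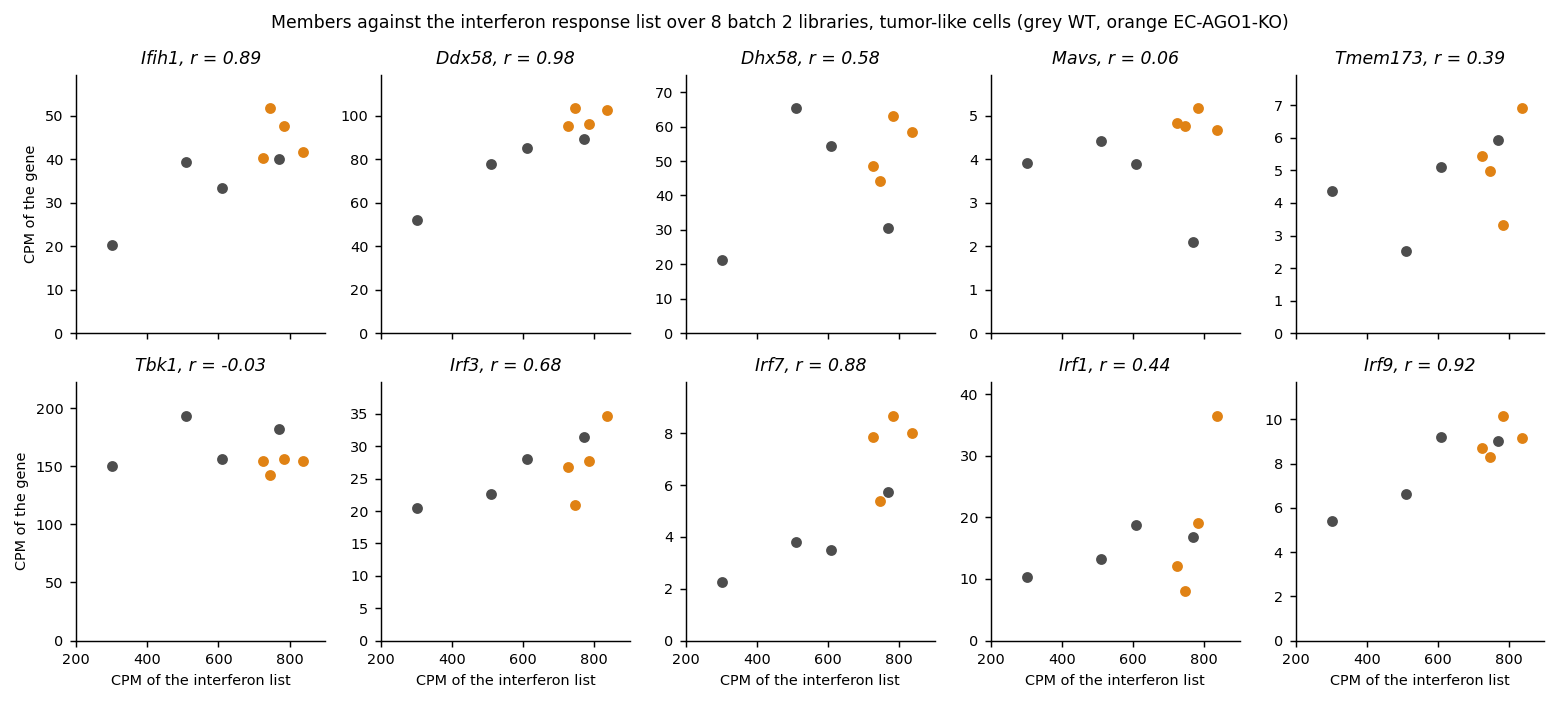
Level of each member (y axis, CPM, starting at 0) against the summed level of the interferon response list (x axis, CPM) in tumor-like cells of the 8 libraries of batch 2 (grey WT, orange EC-AGO1-KO), with Pearson's r of the log2 values in each title. The leftmost point in every panel is WT 5 at 302 CPM of the list, and r is 0.98 for Ddx58 and −0.03 for Tbk1.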

How the data were processed

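Per the labels, single-cell 3′ libraries of 10 E0771 tumor samples were counted with Cell Ranger 7.1.0 on mm10. The authors deposited raw UMI counts per gene and barcode for 31053 genes, empty droplets included. Whether intronic reads were counted, and the strand setting, are not given in the sources used here. The sample labels gave groups, batches and pools. Each library is 1 tumor or a pool of tumors, and p-values measure the spread between these libraries.

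Cells were defined as in the report. Actb was left out of totals and clustering. Cells were clustered on 2000 variable genes, 30 components and 15 neighbours (scanpy 1.11.5, Leiden resolution 1), and host clusters were clustered again. A host cluster was named when at least 3 markers of a class were 2-fold above tumor cells of its batch and detected in 2% of its cells. A marker also had to be among its 100 leading genes. Further limits on mixtures and on mast cell genes were set after the clusters were seen. Tumor-like clusters needed 3 tumor markers 2-fold above the myeloid-like and T-like cells of their main batch. Of all cells, 4357 stayed unnamed. Doublets were not removed.

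UMIs were summed per library and class (at least 10 cells) and tested with edgeR 4.0.16 in R 4.3.3 (quasi-likelihood, TMM, filterByExpr, batch as covariate, Benjamini-Hochberg over all genes tested), with the standard error taken from the F statistic. The fits were tested on simulated data. Depth was 3862 to 4049 UMIs per cell in batch 1 and 595 to 1142 in batch 2. The members and gene lists were chosen with earlier results of these data known. From each list, called genes and up to 3 genes with the highest mean level were named, and for each member the 3 genes most like it. The alternatives covered DESeq2 1.42.0, library sizes without TMM, the low-count filter, batch, pooled and single libraries, the replicate block, limits on cells, Actb and the clustering resolution.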

Additional observations from a re-analysis of the deposited data

Results flagged for a closer look

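Among 59 groups of 4 libraries of batch 2 with at least 10 UMIs of a member, 3 held a library set apart from the others of its genotype by Dixon's criterion, which chance flags in about 5% of groups. All were Tbk1. In tumor-like cells KO 4 was at 142 CPM and the other KO libraries at 154 to 156 CPM, and over all cells KO 4 was at 143 CPM and the others at 152 to 154 CPM. In myeloid-like cells WT 4 was at 560 CPM, from 5 UMIs in 30 cells, and the other WT libraries at 152 to 167 CPM.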

How the results depend on the processing

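Over the alternatives run, 0 members were called in each of the 4 classes, and the lowest adjusted p of any member was 0.0712, for Irf7 over all cells without the low-count filter (0.0712 to 1.00 over its alternatives). The fit in myeloid-like cells with at least 500 genes could not be made, since too few libraries kept 10 cells. The causes of the changes given here were not tested. Genes called in tumor-like cells numbered 0, but 1 with DESeq2, 42 without the low-count filter, 1 without the pooled KO libraries and 0 to 1 with a library left out. Over all cells they numbered 0, but 2, 242 and 1 under the same alternatives and 0 to 1 with a library left out. In myeloid-like cells they numbered 2, but 0 with DESeq2, 14 without the filter, 5 in batch 2 alone, 0 without the batch term, 0 without the pooled libraries, 1 at 5% mitochondrial UMIs, 1 with Actb kept, 0 at resolution 0.5 and 0 to 9 with a library left out. In T-like cells they numbered 0, but 2 in cells with at least 500 genes and 0 to 4 with a library left out. Uncalled log2 fold changes near 0 turned sign. Without the pooled libraries Tmem173 was at −0.12 and Irf1 at −0.10 in tumor-like cells and at −0.068 and −0.10 over all cells. Irf3 was at 0.031 without TMM and 0.068 in batch 2 alone in tumor-like cells, and at 0.010 and 0.016 over all cells. Irf7 in myeloid-like cells was at 0.075 without TMM. With a library left out, the log2 fold change in tumor-like cells ranged from −0.064 to 0.19 for Tmem173, −0.13 to 0.075 for Irf3 and −0.16 to 0.44 for Irf1, and Irf1 over all cells ranged from −0.12 to 0.45 and Irf7 in myeloid-like cells from −0.28 to 0.055.

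Replicate numbers 1 and 4 and batch 1 recur in both genotypes. With the number as a block on those 6 libraries, 0 members and 0 genes were called in tumor-like, myeloid-like and T-like cells and over all cells. In that paired fit Tmem173 was at −0.056 and Irf1 at −0.16 in tumor-like cells, at −0.0042 and −0.13 over all cells, and Irf7 at 0.019 in myeloid-like cells. Deviations of same-numbered libraries of batch 2 from their group means correlated at −0.36 (number 1) and −0.42 (number 4) in tumor-like cells. Numbers 3 and 5 recur in pooled KO libraries, which correlated with WT 3 and WT 5 at 0.37 and 0.35. Since not every pair was above 0.1, the numbers were not taken to pair the libraries.

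Without the 2 libraries farthest from the median of the interferon response list, 0 members correlated with it after adjustment, against 4 with all 8 libraries. Neither count was taken over all genes. Without those libraries r turned to −0.020 for Dhx58 and 0.10 for Tbk1, which was also 0.013 in cells with at least 500 genes. In those cells 4 members, against 8, were higher in myeloid-like than in tumor-like cells of both batches, with 37 myeloid-like cells left in batch 2.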
